A study of Mus musculus with 4 samples.

Results

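The 10 genes described here mark pluripotent cells and were followed in mouse embryonic stem cells (mESC) that lost the enzyme OGT. They are Pou5f1, Sox2, Sall4, Utf1, Lin28a, Dppa2, Dppa4, Dppa5a, Tdgf1 and Gdf3. They were taken by symbol from the deposited gene counts, and all 10 had a row among the 25239 symbols and all 10 were among the 14525 genes tested. Both groups carried the genotype Ogt fl/fl, in which loxP sites flank Ogt. Ogt encodes O-GlcNAc transferase, which adds a single sugar to serine and threonine residues of nuclear and cytosolic proteins. The Ogt iKO group (induced knockout, 2 libraries) came from cells grown with 4-hydroxytamoxifen (4-OHT) for 6 days, and the control group (2 libraries) from the same genotype grown without 4-OHT. Cells were grown with LIF and serum replacement on mitomycin C-treated mouse embryonic fibroblasts, and viable cells were sorted before polyadenylated RNA was sequenced. A YFP+ gate was described for the 4-OHT cultures alone, and no 4-OHT culture with intact Ogt is among the groups, so gate, ligand and loss of Ogt cannot be told apart. The recombinase and its driver, and whether the line is a single clone, are not given in the sources used here. The labels do not say whether the 2 libraries of a group came from separate cultures, and p-values measure only the spread between these libraries.

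Pluripotent cells are held in that state by a small circuit of transcription factors. OCT4 (the product of Pou5f1) and SOX2 bind DNA side by side at enhancers of each other, of Nanog and of many other genes, and SALL4 joins them. These factors are present in naive cells, which resemble the early epiblast, and in the later primed state, unlike factors such as KLF4 that belong to naive cells. DPPA2 and DPPA4 are small chromatin proteins that bind each other, keep certain CpG-rich promoters free of DNA methylation and are needed for activation of Dux, the gene that starts the 2-cell program, which a few mESC in a culture enter for a time. LIN28A blocks maturation of the let-7 microRNAs. TDGF1 (also called Cripto) is a co-receptor for the growth factor Nodal, and GDF3 is a related ligand.

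The study concerns DNA methylation, which acts at CpG dinucleotides, so the promoters of the genes with the largest and the next largest fall (Sox2 and Tdgf1) and of Pou5f1 are shown with every CpG in capitals. Each window holds the 250 bases before a RefSeq start in GRCm38.p6, read 5′ to 3′ on the strand of the gene. Sox2 is at chr3:34649745-34649994 on the plus strand, Tdgf1 at chr9:110946159-110946408 on the minus strand, and Pou5f1 at chr17:35505782-35506031 on the plus strand.
Sox2: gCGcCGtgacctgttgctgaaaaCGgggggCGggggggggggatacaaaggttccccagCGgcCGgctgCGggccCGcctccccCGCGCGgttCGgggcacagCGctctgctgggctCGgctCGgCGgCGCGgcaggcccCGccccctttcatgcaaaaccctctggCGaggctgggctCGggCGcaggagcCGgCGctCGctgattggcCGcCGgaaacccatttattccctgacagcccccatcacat
Tdgf1: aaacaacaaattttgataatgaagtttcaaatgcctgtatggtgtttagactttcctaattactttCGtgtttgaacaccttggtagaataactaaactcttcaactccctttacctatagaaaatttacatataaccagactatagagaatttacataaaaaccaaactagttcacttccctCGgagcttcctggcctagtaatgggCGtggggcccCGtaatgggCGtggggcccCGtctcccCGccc
Pou5f1: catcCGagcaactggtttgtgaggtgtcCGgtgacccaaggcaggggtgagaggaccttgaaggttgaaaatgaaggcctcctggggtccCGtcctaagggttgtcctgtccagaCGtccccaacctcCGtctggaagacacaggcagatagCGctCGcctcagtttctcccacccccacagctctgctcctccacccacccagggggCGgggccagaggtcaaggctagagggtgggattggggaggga

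These promoters differed widely in CpG content. The Sox2 window held 27 CpGs, more than 91.4% of the 32851 windows in the RefSeq table, whose median was 6. Utf1 had 14, Pou5f1 had 8 at this start and 6 at a second start, and Lin28a and Tdgf1 had 7 each, more than 53.7% of windows. Sox2 and Tdgf1, the genes with the largest falls, thus had 27 and 7. Promoters of Sall4, Dppa2, Dppa4, Dppa5a and Gdf3 were not analysed here. The octamer bound by POU factors (ATGCAAAT or its reverse complement, both strands searched) was in none of the 6 windows of these genes and in 1.6% of all windows. The SOX core ACAATG, on either strand, was in the Lin28a window and in that of the second Pou5f1 start, and in 10.7% of all windows. Such matches describe letters only, and methylation was not measured in these files.

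The deleted gene was checked first. Ogt (chromosome X, 101640011 to 101684351 in GRCm38.p6) had 2963 and 3108 counts in the controls and 437 and 389 in Ogt iKO, or 12.9% of the control level. Library totals ran from 14668489 to 16504204 counts. At an adjusted p under 0.05 in edgeR's quasi-likelihood test, 32% of the genes tested were lower and 33.2% higher in Ogt iKO, and both Ogt iKO libraries lay below both controls for 40.9%. Scaling by library totals alone gave 3282 lower and 6116 higher genes, against 4651 and 4827, and put the median over all tested genes at 0.19 in place of 0.024 (log2), so every change is given relative to most genes. Of 5 surface genes of mESC, 4 were lower and 1 was higher. In CPM (counts per 1000000 counts, scaled between libraries by TMM), Epcam and Cdh1 went from 327 and 671 in control to 284 and 534 in Ogt iKO. Pecam1 and Alpl fell by 0.89 and 0.19 on the log2 scale, and Fut4 rose by 1.42 from 51 counts in each control. Per the labels, the sort used CD90.2 to mark mESC and CD326 to remove feeders. Epcam encodes CD326, and Thy1, which encodes CD90, had 15.6 CPM in control, 25.6 CPM in Ogt iKO replicate 1 and 8.90 CPM in Ogt iKO replicate 2. As background, EpCAM is usually taken as a marker of mESC and CD90 is carried by many fibroblasts, so the roles that the labels give these antibodies look exchanged, and which gate was used is not settled here.

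Of the 10 genes, 9 were lower in Ogt iKO, 0 were higher and Dppa5a was not called (edgeR, adjusted p under 0.05 over all genes tested, where 32% of genes were lower). Their median log2 fold change was -0.53, against 0.024 for all genes tested. Log2 fold changes ran from -1.59 for Sox2 to -0.03 for Dppa5a. All 4 pairings of an Ogt iKO with a control library were below 0 for the 9 called genes, whereas Dppa5a was below 0 in 2 of 4. Both Ogt iKO libraries lay below both controls for 40.9% of all genes tested. Together the 10 genes took 0.465% of the counts in each control and 0.299% and 0.341% in Ogt iKO. In bulk RNA, fewer cells of a kind and less RNA per cell cannot be told apart.

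**Figure D1:**
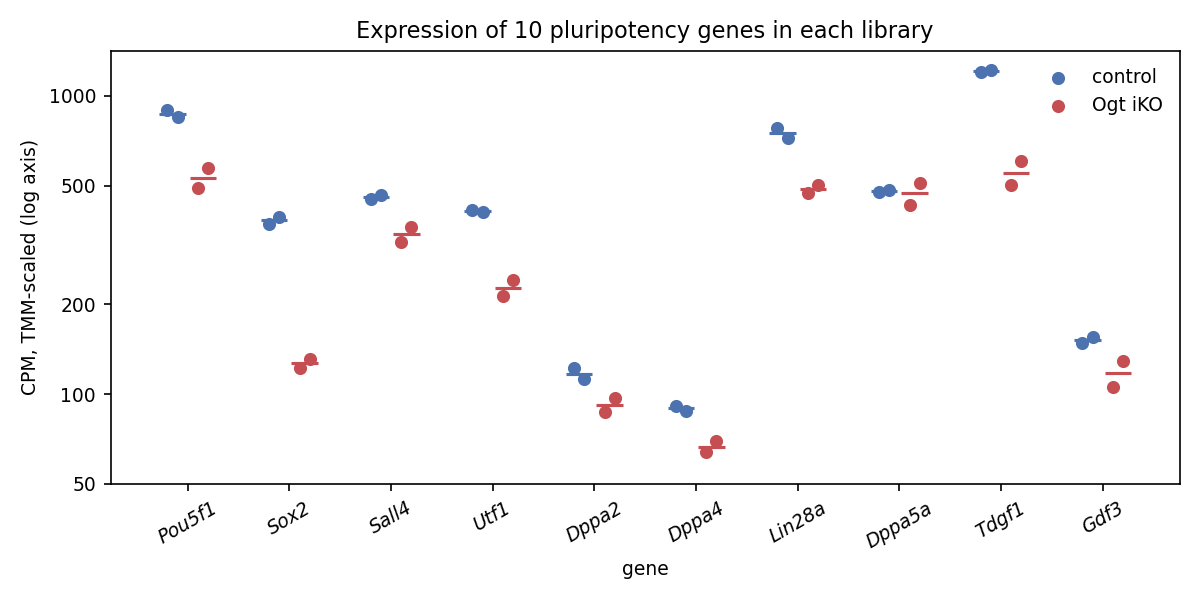
Expression of the 10 genes in each of the 4 libraries, in CPM on a log axis, with a point per library and a bar at the mean of each group (n = 2). Every Ogt iKO point lies below both control points except for Dppa5a, whose groups overlap. The same separation was seen for 40.9% of all genes tested.

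**Figure D2:**
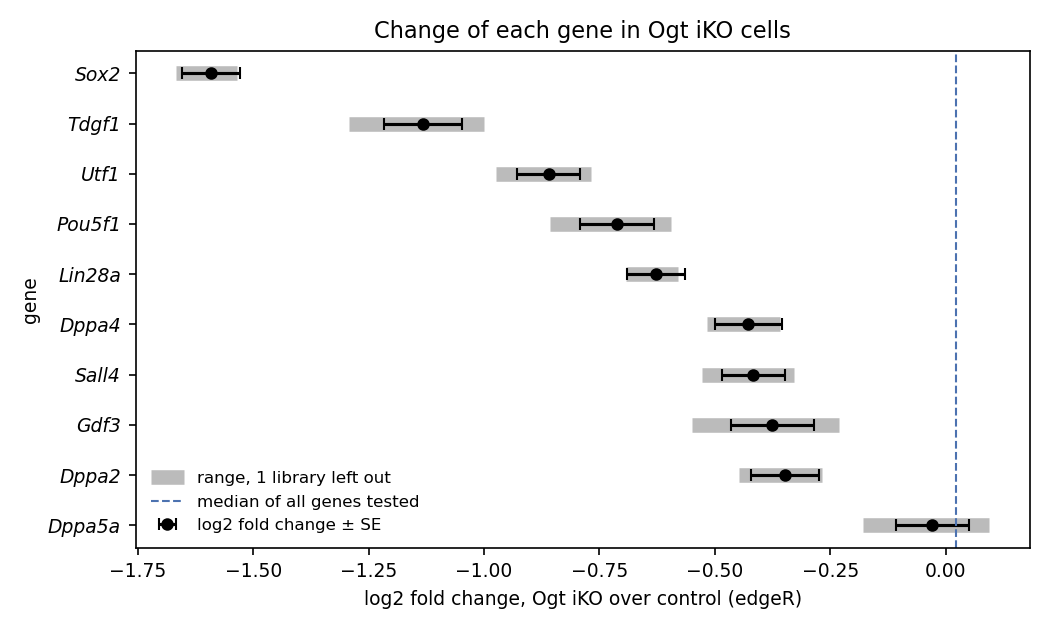
Log2 fold change of each gene in Ogt iKO over control, as points with standard errors from edgeR, on grey bars that span the fits with 1 library left out. Sox2 (-1.59) and Tdgf1 (-1.13) lie farthest to the left, and the bar of Dppa5a crosses 0.

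The core transcription factors fell to different extents. Sox2, an HMG-box factor on chromosome 3 from 34649995 to 34652461, had 372 and 393 CPM in the controls and 122 and 131 CPM in Ogt iKO. Its level fell to 33.2% of control, with a log2 fold change of -1.59 (SE 0.06, edgeR adjusted p 7.55e-07), and only 1.96% of the genes tested had a lower log2 fold change. Pou5f1, on chromosome 17 from 35506032 to 35510777, had 894 and 849.6 CPM in the controls and 489 and 575 CPM in Ogt iKO. Both Ogt iKO libraries were well below the controls, at 61.0% of their mean (log2 fold change -0.71, SE 0.08, edgeR adjusted p 9.58e-05). Sall4, a zinc-finger factor on chromosome 2 from 168748332 to 168767201, had 450.2 and 466 CPM in the controls and 323 and 363 CPM in Ogt iKO. The groups of Sall4 were again separate, at a smaller distance, with 74.9% of control left (log2 fold change -0.42, SE 0.07, edgeR adjusted p 0.000798). For Pou5f1, 14.1% of its exon length lies under an antisense transcript, Gm19553, for Sall4 9.5% lies under Gm14261, and for Lin28a 5.86% lies under Gm13061, on the opposite strand. The strand that was counted is not given in the sources used here, so reads of these transcripts could be among the counts.

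Utf1 encodes a chromatin-bound protein found mainly in pluripotent cells (chromosome 7, 139943856 to 139945112). Utf1 had 414 and 409.6 CPM in the controls and 213 and 241 CPM in Ogt iKO. The controls were nearly equal and both Ogt iKO libraries were far below them, at 55.1% of the control mean (log2 fold change -0.86, SE 0.07, edgeR adjusted p 1.59e-05).

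Dppa2 and Dppa4 lie side by side on chromosome 16, from 48310274 to 48319513 and from 48283735 to 48294292, and both fell modestly. Dppa2 had 122 and 112 CPM in the controls and 87.4 and 97.0 CPM in Ogt iKO. Its groups did not overlap, and 78.6% of the control mean remained (log2 fold change -0.35, SE 0.07, edgeR adjusted p 0.0033). Dppa4 had 91.5 and 87.9 CPM in the controls and 63.8 and 69.7 CPM in Ogt iKO. These groups were also separate, with 74.4% of the control mean left (log2 fold change -0.43, SE 0.07, edgeR adjusted p 0.00102). The call of Dppa2 depended on the scaling, since with library totals alone its log2 fold change was -0.18 with an adjusted p of 0.0572 (edgeR). Transcripts of 2 other genes matched 37.0% of the Dppa2 transcript, and those of 2 others 56.9% of that of Dppa4, at 95% identity over at least 100 bases, so reads can be split between copies.

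The genes of the 2-cell program that depend on DPPA2 and DPPA4 moved the other way. Of the 25 tested genes of that list, 23 were higher, 0 were lower and 2 were not called. Their median log2 fold change was 2.31. The 3 genes at or under 3 counts in both controls lie above this median also at their lower bound, so they do not test it. Of 30 listed genes, 29 had a row, and those with too few counts in 2 libraries were not tested. Genes low in control, such as Dux and Tcstv3, passed that filter through their Ogt iKO counts alone. The count and the median thus depend in part on the filter. With no filter, 23 were higher and 0 lower. All genes tested had a median of 0.024, with 33.2% higher. Dux itself, listed as Dux in the count tables, had 2 and 6 counts in the controls and 19 and 19 in Ogt iKO (log2 fold change 2.13, SE 0.50, edgeR adjusted p 0.0052). These are few counts, and the call was lost without control replicate 1 (log2 fold change 1.55, adjusted p 0.0554, edgeR). Zscan4d and Usp17le, members of families of near-identical copies, had log2 fold changes of 2.30 and 2.23, B020004J07Rik of 3.24 and Tcstv3 of 3.70 (edgeR adjusted p from 3.01e-06 to 1.87e-05). The controls held only 15 and 10 counts of B020004J07Rik and 8 and 5 of Tcstv3, so the size of these 2 changes is uncertain. In the same libraries, then, Dppa2 and Dppa4 were lower while most of the genes listed downstream of them were higher.

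Of 25 tested other regulators of Dux and the 2-cell program, 15 were lower, 2 were higher and 8 were not called, with a median of -0.27. Of all genes tested, 32% were lower and 33.2% higher, with a median of 0.024. Chaf1b, a subunit of the CAF-1 histone chaperone that restrains the 2-cell state, fell most among those named, from 196 to 51.5 CPM (log2 fold change -1.93). Log2 fold changes were -0.90 for Uhrf1, which recruits DNMT1 to replicated DNA, -0.75 for Zmym2, a corepressor component, and -0.63 for Trp53, which encodes p53. E2f6, a DNA-binding partner of a variant Polycomb complex, rose by 0.91. The number of higher genes in this list was 6 with library totals alone and 1 without control replicate 2.

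Of the RNA-binding proteins, Lin28a fell and Dppa5a was not called. Lin28a, on chromosome 4 from 134003330 to 134019196, had 782 and 724 CPM in the controls and 474 and 501 CPM in Ogt iKO. Its groups were separate, with 64.7% of the control mean left (log2 fold change -0.63, SE 0.06, edgeR adjusted p 5.43e-05). Dppa5a, a KH-domain protein gene on chromosome 9 from 78367052 to 78368199, had 477 and 485 CPM in the controls and 432 and 512 CPM in Ogt iKO. One Ogt iKO library lay below both controls and the other above them, and the log2 fold change was -0.03 (SE 0.08, edgeR adjusted p 0.770). That value had no stable sign, at 0.14 with library totals alone, 0.014 with upper-quartile factors, 0.094 without Ogt iKO replicate 1 and -0.18 without Ogt iKO replicate 2, where it was called lower (adjusted p 0.0335, edgeR). The Dppa5a count is also the least certain of the 10, because 86.4% of its 619-base transcript matched transcripts of 7 other genes at 95% identity over at least 100 bases. Those include Dppa5b and Dppa5c, and how reads that map to several copies were counted is not given in the sources used here.

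Lin28b, the paralog of Lin28a, had 60.1 CPM in control and 59.6 CPM in Ogt iKO, with a log2 fold change of -0.01 (edgeR adjusted p 0.902) that was 0.16 with library totals alone. Of the 21 genes of the LIN28 and let-7 axis, 3 were higher, 11 were lower and 7 were not called, with a median of -0.16, where 32% of all genes tested were lower and 33.2% higher. Mycn and Myc, both with let-7 sites in their messages, fell by 1.19 and 0.70 on the log2 scale. Igf2bp3, an mRNA-binding protein gene, and Dicer1, which cuts microRNA precursors, fell by 0.40 and 0.37. Tut4, which encodes an enzyme that LIN28A recruits to add uridines to let-7 precursors, rose by 0.43. With library totals alone 5 of the list were lower, a share close to that of all genes in that setting (3282 of 14525), and without control replicate 1 the higher genes numbered 1.

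Tdgf1 and Gdf3, the co-receptor and the ligand of the Nodal branch, fell by unequal amounts. Tdgf1, on chromosome 9 from 110939608 to 110946158, had 1204 and 1223 CPM in the controls and 503 and 604 CPM in Ogt iKO. Both Ogt iKO libraries were far below the controls, at 45.6% of their mean (log2 fold change -1.13, SE 0.08, edgeR adjusted p 1.19e-05). Gdf3, on chromosome 6 from 122605403 to 122610087, had 149 and 156 CPM in the controls and 106 and 129 CPM in Ogt iKO. The groups of Gdf3 were separate although its Ogt iKO libraries differed by 0.29 on the log2 scale, the widest gap within a group among these genes (log2 fold change -0.38, SE 0.09, edgeR adjusted p 0.00616). With library totals alone Gdf3 was not called (log2 fold change -0.21, adjusted p 0.0765, edgeR). A pseudogene, Tdgf1-ps1, matched 26.5% of the Tdgf1 transcript.

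Of 15 other Nodal pathway genes tested, 5 were higher, 5 were lower and 5 were not called, with a median of -0.11. These shares are close to those of all genes tested (33.2% higher and 32% lower), so the list as a whole did not stand apart in its counts. Lefty2 and Lefty1, secreted Nodal antagonists that are switched on by Nodal signalling, fell by 2.70 and 0.88. Smad7, an inhibitor that the pathway induces, fell by 1.08, and Foxh1, the DNA-binding partner of SMAD2, by 0.81. Acvr2a, a type II receptor gene, rose by 1.07, and Nodal itself rose by 0.38, from 110 to 144 CPM (edgeR adjusted p 0.00725). The ligand gene Nodal was thus higher where the co-receptor gene Tdgf1 was lower.

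Partners and well-known targets of OCT4 and SOX2 were mostly lower. Of 30 tested, 25 were lower, 2 were higher and 3 were not called, with a median of -0.74. Of all genes tested 32% were lower and 33.2% higher, with a median of 0.024. Sall1 and Klf4 both fell by 1.82, Nanog by 1.47, Rest (a repressor of neuronal genes) by 1.28 and Tcf7l1 (a Wnt-pathway repressor) by 1.01. Dppa3, a gene of the early embryo and germline, rose by 0.79 (SE 0.10), from 52.6 to 91.3 CPM. The fall of Sox2 was thus larger than that of Nanog and smaller than that of Klf4 in point value, and these differences were not tested.

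Of 29 tested paralogs of the 10 genes, 8 were higher, 11 were lower and 10 were not called, with a median of -0.17. These counts are near the shares of all genes tested, 33.2% higher and 32% lower. Among SOX genes, Sox1, a neural-plate gene, fell by 2.36 and Sox13 by 1.29, while Sox4 rose by 0.97. Among SALL genes, Sall1 fell by 1.82 while Sall2 rose by 0.86, and Sall3, named after its value was seen, rose by 1.26. Sall4 therefore fell less than Sall1 in point value, and Sall2 and Sall3 moved the other way.

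**Figure D3:**
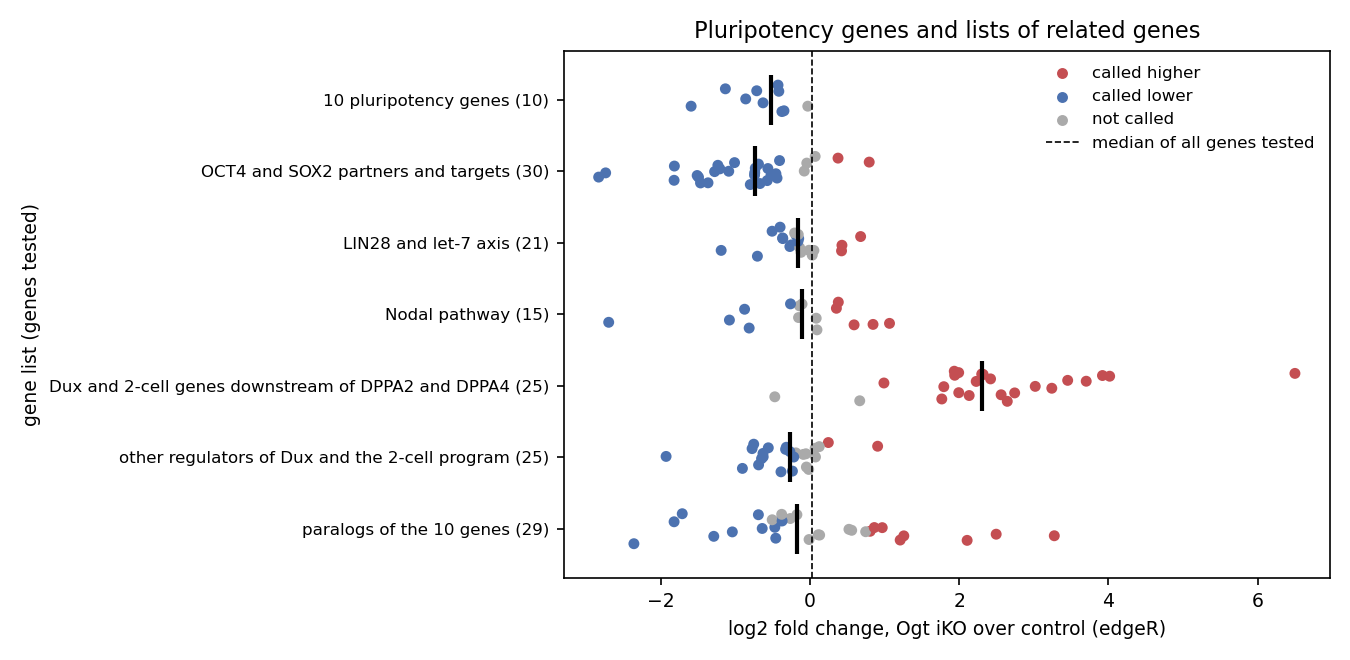
Log2 fold change (edgeR) of each tested gene in the 10 pluripotency genes and 6 lists of related genes, with a black bar at the median of each row and colours for called higher, called lower and not called. The list of Dux and 2-cell genes has its median at 2.31, while that of OCT4 and SOX2 partners is at -0.74 and that of the 10 genes at -0.53.

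The ratio of 2 genes within a library needs no scaling between libraries and shows how unequal the changes were. Relative to Pou5f1, the log2 ratio of Sox2 counts was -1.26 and -1.11 in the controls and -2.00 and -2.13 in Ogt iKO, a difference of -0.88, or 0.545 times the control ratio. Tdgf1 also lost ground on Pou5f1, by -0.42, and Utf1 by -0.15. Dppa5a gained most, with a difference of 0.68 or a 1.61-fold higher ratio. Its own log2 fold change was -0.03 and that of Pou5f1 -0.71, so this gain reflects the fall of Pou5f1. Dppa2, Gdf3, Sall4 and Dppa4 gained 0.37, 0.34, 0.30 and 0.29. For these 8 genes the groups did not overlap, and the two-sided exact permutation p was 0.333, the smallest that 2 libraries against 2 can give (0.375 adjusted over the 9 ratios). The share of all genes tested whose ratio to Pou5f1 separates the groups was not computed, so the separation is not read as particular to these genes. Lin28a overlapped between groups, with a difference of 0.089 (exact permutation p 0.667). Set against the sum of the other 9 genes, Pou5f1 itself shifted by only -0.0063, so its fall matched that of the summed counts of the others.

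**Figure D4:**
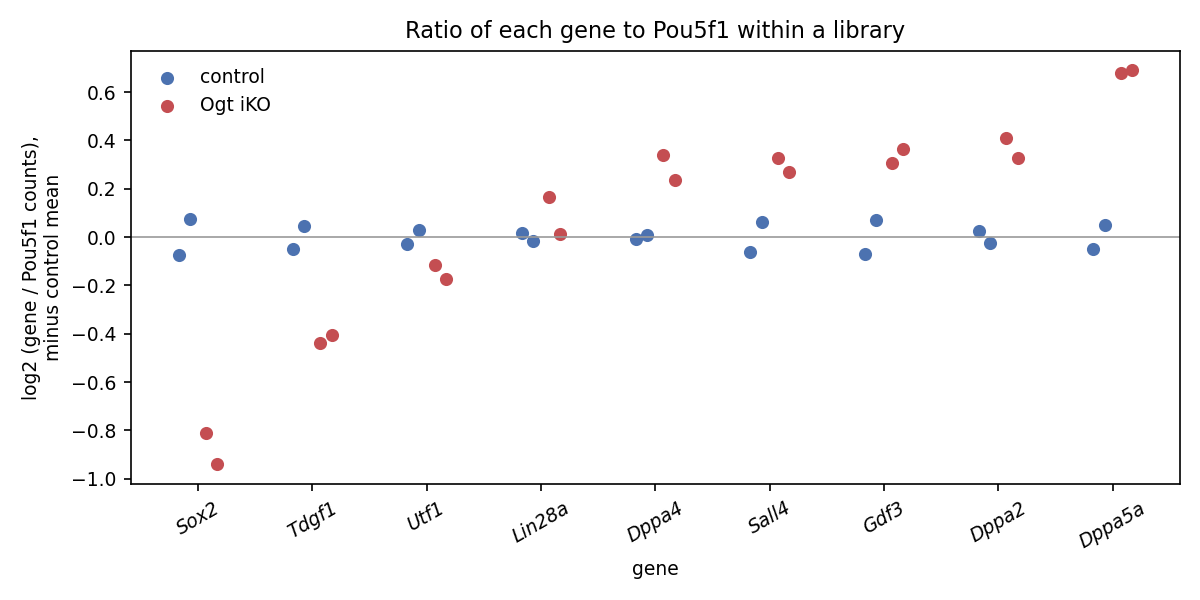
Log2 ratio of the counts of 9 genes to those of Pou5f1 in each library, with the control mean of each gene set to 0. Sox2 lies 0.88 below its control mean in Ogt iKO and Dppa5a 0.68 above, while the groups of Lin28a overlap.

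Levels were compared between genes per kilobase of merged exon. In control, Dppa5a was highest at 777 CPM per kb ± 9.53 (SD, n = 2), which placed it at rank 13 of 14288 genes with an exon model. Tdgf1 followed at 463 ± 4.90, Pou5f1 at 388 ± 14.0 and Utf1 at 336 ± 2.58 CPM per kb, all within the top 45 ranks. Lin28a (188 ± 10.2) and Sox2 (186 ± 7.18 CPM per kb) overlapped in control. Below them came Sall4 at 82.7, Gdf3 at 62.9, Dppa4 at 54.0 and Dppa2 at 47.9 CPM per kb, each separate from its neighbour in this order. In Ogt iKO, Dppa5a stayed at the top with 762 ± 90.8 CPM per kb (SD, n = 2), at rank 9. Pou5f1 came next at 237 ± 26.8 and overlapped Tdgf1 at 211 ± 27.1, which overlapped Utf1 at 185 ± 15.8 CPM per kb. Utf1 was separate from Lin28a, the next in order. Sox2 went from rank 159 to rank 682 and, at 61.7 ± 3.06 CPM per kb, overlapped Sall4 at 62.0 ± 5.18. Dppa4 and Dppa2 also overlapped there, at 40.1 and 37.7 CPM per kb. Sox2 thus moved from beside Lin28a to beside Sall4. These levels carry the uncertainty on copies given above, and Sox2 has a longer gene model in RefSeq than the 2057 bases used here.

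The genes around each of the 10 were described as well. Among the 3 nearest genes on each side, 32 were tested, of which 14 (43.8%) were lower and 7 (21.9%) were higher, against 32% and 33.2% of all genes. Gdf3 sits in a cluster of pluripotency genes with mixed changes. Nanog fell by 1.47 and the glucose transporter gene Slc2a3 by 0.93, from 1227 to 644 CPM, while Dppa3 rose by 0.79 and Apobec1, 2.4 kb from Gdf3, rose by 0.36. Beside Pou5f1, Tcf19 fell by 1.10 and Cchcr1 by 0.73, and H2-Q10 rose by 1.10. Beside Tdgf1, Lrrc2 fell by 1.34 and Als2cl by 0.86. Near Dppa5a, which was not called, Ddx43 fell by 1.88 and Ooep, an oocyte and embryo gene, by 0.43. Near Lin28a, Crybg2 fell by 1.92, Rps6ka1 by 0.47 and Dhdds by 0.25. Near Utf1, Kndc1 fell by 0.61 while Spef1l rose by 2.30, from 11 and 20 counts to 71 and 91. Near Sall4, Nfatc2 rose by 0.46 and Atp9a by 0.23, and near Dppa2 and Dppa4, Nectin3, 1785 kb away, fell by 0.24. Around Sox2 only Dnajc19 was tested, with a log2 fold change of -0.19 (edgeR adjusted p 0.233), and Sox2ot, the transcript in whose intron Sox2 lies, was not tested.

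Among the called neighbours with a mean log2 CPM that reached 1, 7 calls were lost when 1 library was left out, with a highest adjusted p (edgeR) of 0.189 for Apobec1, 0.121 for Nectin3, 0.105 for Nfatc2 without control replicate 1, 0.0973 for H2-Q10 and 0.0634 for Kndc1 without control replicate 2, and 0.154 for Atp9a and 0.107 for Dhdds without Ogt iKO replicate 2. Library totals alone ended the calls of Dhdds, Nectin3 and Ooep, and DESeq2 ended those of Apobec1, Atp9a, Dhdds, H2-Q10, Nectin3 and Nfatc2. Psors1c2 and Cd52 were called as well but were below that level, and their calls were not examined with a library left out.

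**Figure D5:**
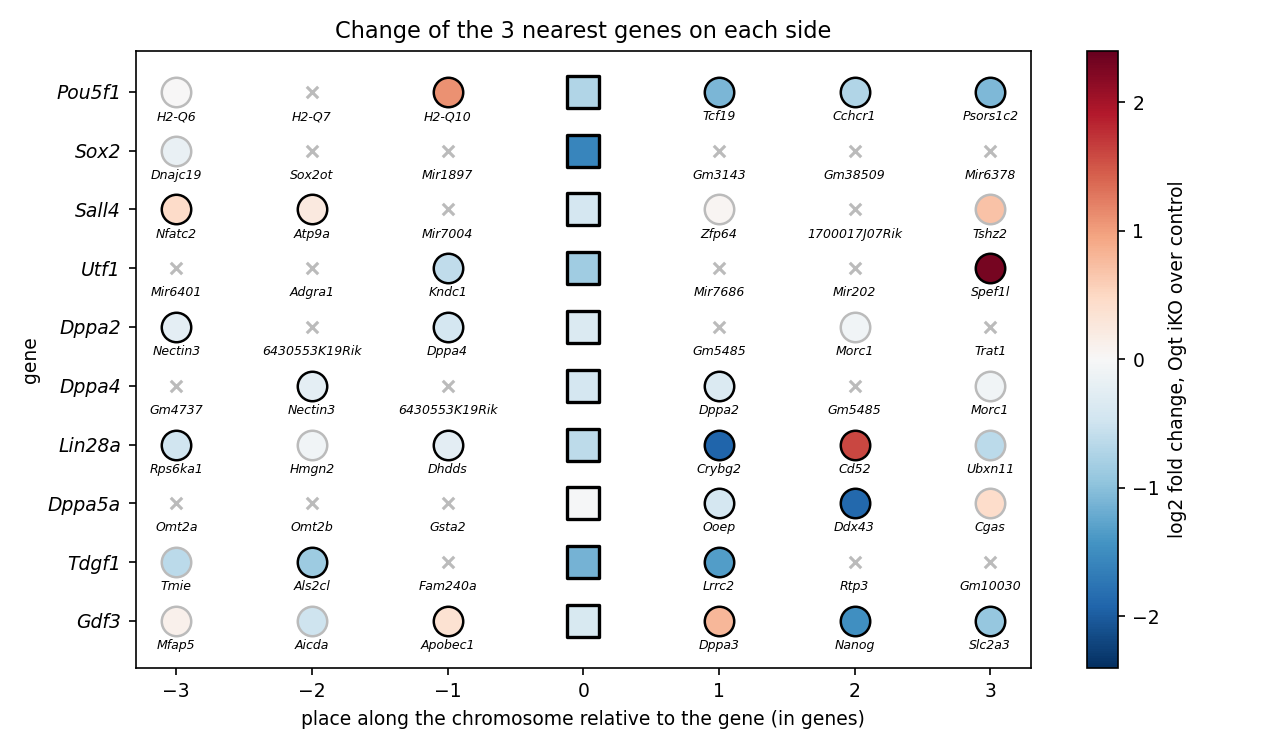
Log2 fold change (colour) of each of the 10 genes (squares) and of the 3 nearest genes in the count tables on each side (circles, with a dark outline where called), with crosses for genes not tested. The row of Gdf3 holds both called falls (Nanog, -1.47) and called rises (Dppa3, 0.79).

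Markers of other cells were summed per library. The summed level of 18 fibroblast markers was 2101 and 2458 CPM in the controls, 3826 CPM in Ogt iKO replicate 1 and 1411 CPM in Ogt iKO replicate 2, and none was at 0. Of the 18, 2 were higher, 0 were lower and 16 were not called, against 33.2% higher and 32% lower of all genes tested. All 10 pluripotency genes were lower in Ogt iKO replicate 1 than in replicate 2, against 5 of 10 between the controls in the same order and 50.2% of all genes tested. Without Ogt iKO replicate 1, log2 fold changes of the 9 genes ran from -1.54 for Sox2 to -0.23 for Gdf3, which had -0.38 with all libraries. That fit leaves 1 Ogt iKO library, whose fibroblast sum was below both controls. The part of fibroblasts in the values of the 10 genes was not tested.

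Counts of called lineage markers are to be read against the 33.2% of all genes tested that were higher and the 32% that were lower. Markers low in both groups were not tested. This left 10 of 12 trophectoderm, 9 of 11 primitive endoderm, 6 of 8 mesendoderm and 6 of 7 neuroectoderm markers. Some that were low in control, such as Sox17 and Foxa2, were tested through their Ogt iKO counts alone. The numbers called thus depend in part on the filter. Of 10 tested trophectoderm markers 8 were higher and 1 lower, and their summed level went from 139 and 125 CPM to 391 and 408 CPM (Prl3d1 was at 0 in all libraries). That rise came from Krt8 (7.26 to 95.5 CPM) and Krt18 (19.8 to 241 CPM), keratin genes of simple epithelia, while Tfap2c fell from 85.2 to 17.6 CPM. For primitive endoderm 5 of 9 were higher and 0 lower, with sums of 112 and 110.1 CPM against 251 and 168 CPM (Ttr at 0). Dab2 went from 12.4 to 64.3 CPM, and Col4a1 had 67.8 and 70.5 CPM in the controls, 131 CPM in Ogt iKO replicate 1 and 75.3 CPM in Ogt iKO replicate 2. The mesendoderm sum went from 15.5 and 13.04 CPM to 30.5 and 31.5 CPM, with 4 of 6 higher and 0 lower. Of those 4, Eomes, Hand1 and Foxa2 are also on the trophectoderm or primitive endoderm list, and Eomes (8.47 to 19.8 CPM) made most of the rise. Neuroectoderm markers, which include the Sox2 relative Sox1, went from 201.5 and 185 CPM to 103 and 95.9 CPM, with 4 of 6 lower and 1 higher. The part of these cell types in the values of the 10 genes was not tested.

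The mean profile of the 10 genes over the 4 libraries was not unusual. Of 6430 genes whose mean log2 CPM reached 5, 785 lay within a Euclidean distance of 0.2 of it (log2 CPM centred per gene). The nearest were Cdc20, Etaa1 and Gnl3, at distances of 0.022, 0.024 and 0.026, with log2 fold changes of -0.65 each.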

How the data were processed

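Polyadenylated RNA was sequenced as 2 Ogt iKO and 2 control stranded libraries, per the labels' protocols. The authors deposited raw counts per gene symbol, with no normalization. STAR and Picard and the build mm10 are named in the submitters' processing notes, while versions, annotation and counted strand are not given in the sources used here. Groups and replicate numbers were read from the titles. Replicates differed by more than counting noise (chi-square per degree of freedom 7.04 in Ogt iKO and 4.25 in control). A gene at 0 could hold up to 3 counts, or 0.182 to 0.205 CPM over raw library totals (without TMM scaling), a limit that covers counting error only.

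In R 4.3.3, edgeR 4.0.16 was run on the counts (quasi-likelihood test, TMM, filterByExpr, all 4 libraries, no covariate), with Benjamini-Hochberg adjustment over 14525 genes and a threshold of 0.05. The standard error is the log2 fold change over the square root of F. Lists are described by counts and medians. Exon lengths and transcripts came from GENCODE M21, and positions and promoters from RefSeq GRCm38.p6, the assembly of mm10. RefSeq gave 25041 symbols a position. Of the listed symbols, Duxf3 was read as Dux and the trophectoderm marker Psx1 as Rhox6, and Zscan4e was not analysed here. The script was tested on simulated data. The genes, lists and tests were chosen with earlier results of these data known. The genes named beside the 10 are, by rule, Ogt, the 5 per list that had the lowest adjusted p among those whose mean log2 CPM reached 1, Nanog, Lin28b, Nodal, Dux and Dppa3, called neighbours whose mean log2 CPM reached 1, and the 3 genes nearest to the mean profile. A gene that this rule takes is not reported here. Marker genes are named where they bear on a group. Alternatives were other size factors, DESeq2 1.42.0, other filters, a robust spread, a replicate block, a threshold of 0.01, other neighbour ranges and leaving out each library.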

Additional observations from a re-analysis of the deposited data

How the results depend on the processing

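Between 7 and 10 of the 10 genes were lower and 0 were higher in every setting, and Sox2, Tdgf1, Utf1, Pou5f1, Lin28a, Dppa4 and Sall4 kept direction and call in all 13. Scaling by library totals alone ended the calls of Dppa2 (-0.18, adjusted p 0.0572, edgeR) and Gdf3 (-0.21, adjusted p 0.0765, edgeR), turned Dppa5a to 0.14 and Lin28b to 0.16, left 5 lower genes in the LIN28 and let-7 list (11 before) and gave 6 higher genes among the other regulators of Dux (2 before). Upper-quartile factors turned Dppa5a to 0.014 and Lin28b to 0.030. With 1 library left out, Dppa5a ran from -0.18 to 0.094, the higher genes of the LIN28 and let-7 list from 1 to 3 and those among the other regulators of Dux from 1 to 2, and the log2 fold change of Lin28b from -0.0425 to 0.0025 (without control replicate 2). The causes were not tested. With the sum of the other 9 genes as denominator in place of Pou5f1, the ratio change was 0.77 for Dppa5a and -0.54 for Tdgf1. Of 51 other genes named by rule, without the 3 nearest to the mean profile, 41 kept direction and call in every setting. DESeq2 did not call Dux (adjusted p 0.0723). With 1 nearest gene a side, 6 of only 10 tested neighbours (60.0%) were lower and 3 were higher. With 5 a side, 21 of 51 (41.2%) were lower and 12 were higher.

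A fit with the replicate number as a block called 4719 genes lower and 4922 higher, against 4651 and 4827, and changed no call among the 10 genes. The labels do not say that a number pairs cultures, and deviations of same-numbered libraries correlated at 0.0859 across genes. Fits without 1 library leave a group with 1 library, assumed to vary like the other group. Depth limits Dux, with at most 19 counts, and genes with few control counts such as Tcstv3 and B020004J07Rik. It does not limit the 10 genes, which had at least 1081 counts in each library.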
